A study of Mus musculus with 2 samples.

Results

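The genes described here make fatty acids, triglyceride and phospholipids. They are 47 genes chosen by name: enzymes of fatty acid synthesis, elongation, desaturation and activation (17 genes), enzymes that build triglyceride from glycerol-3-phosphate (12), enzymes of phospholipid synthesis and reacylation (15), and the regulators Srebf1, Mlxipl and Thrsp (3). Together they had 116 probe sets on the array, and they were 47 of the 18193 genes that had a probe set assigned to 1 gene. Expression was measured in 3T3-L1, a mouse preadipocyte line that differentiates into fat cells when insulin, dexamethasone and 3-isobutyl-1-methylxanthine are added. Both cultures were kept in 10% FBS and DMEM (25 mM glucose) and received either the control siRNA siGL3, directed at luciferase, or an siRNA against Phf21a, the gene of BHC80, a subunit of a histone demethylase complex. Adipogenic induction followed 24 h after transfection in both groups, and total RNA was taken 24 h after induction, so both arrays show an early stage of differentiation. There was 1 array for each group, which gives no replicate error and allows no test.

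Fat cells make fatty acids from cytosolic acetyl-CoA: carboxylases form malonyl-CoA, fatty acid synthase builds palmitate, and elongases and desaturases modify it. Acyl chains are then placed on glycerol-3-phosphate, phosphatidate is dephosphorylated to diacylglycerol, and diacylglycerol becomes either triglyceride or, with an activated head group, phosphatidylcholine and phosphatidylethanolamine. In adipose tissue several of these genes are known as targets of SREBP-1 and ChREBP, the products of Srebf1 and Mlxipl, and triglyceride enzymes are strongly induced as adipocytes mature.

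The values are MAS5 signals, a linear measure of brightness in arbitrary units, and both arrays had been scaled to a trimmed mean of 500. A gene counts as detected if it reached 51.3, the pooled median of the signals, on at least 1 array, and the brightest such probe set stands for it. A log2 ratio is always the signal with Phf21a siRNA over that with control siRNA, and the ± beside it is a local spread, the distance from the 16th to the 84th percentile of log2 ratios divided by 2, among the 1000 genes nearest in signal. This spread includes any true differences and is not an error between cultures. Because a probe set's brightness depends on its sequence, signals were compared between arrays and not between genes. In RNA from whole cultures, fewer cells of a type and less RNA per cell cannot be told apart.

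The targeted gene was lower in the library labelled Phf21a siRNA, with signals of 768 on the control array and 306 on the other (log2 ratio -1.33 ± 0.51). Fibroblast and preadipocyte markers were detected in 6 of 6 cases, with summed signals of 36752 and 28375. Of 10 adipocyte markers 5 were detected and Plin1 had no probe set of its own, with summed signals of 7738 and 10081 over the other 9. Fabp4 and Lpl made up most of these sums, and they went in opposite directions, Fabp4 with 3502 and 5849 and Lpl with 3614 and 3253. The sums thus do not stand for the markers as a set. Of the defining adipocyte genes, Adipoq (12.5 and 26.5), Cebpa (45.0 and 12.0), Cidec (2.24 and 1.20) and Lep (2.69 and 1.24) were not detected on either array. Among 7 leukocyte markers 3 were detected, the summed signals were 381 and 700, and Csf1r (200 and 452) and Cd68 (64.0 and 119) passed 1.5-fold on the higher side. The other detected probe sets of Csf1r gave log2 ratios of only 0.18 and 0.22. The defining leukocyte genes Ptprc (6.87 and 12.2) and Tyrobp (4.66 and 6.32) were not detected on either array. Endothelial markers and hepatocyte markers were detected in 0 of 3 cases each, and Des was the muscle marker detected. Of the adipocyte markers Fabp4 (3502 and 5849), Pparg (512 and 814) and Retn (9.82 and 70.9) passed 1.5-fold on the higher side and 0 on the lower. Of all detected genes 15.2% passed on the higher side and 13.9% on the lower. Retn reached the detection limit on only 1 array, and its control signal lay under 12.9, the floor applied before log2. Of the 6 preadipocyte and fibroblast markers Pdgfrb (2092 and 3743) passed on the higher side and Dlk1 (12290 and 5940) on the lower. A second probe set of Pdgfrb gave a log2 ratio of only 0.13. The ratio of 3′ to 5′ signal, a measure of RNA integrity, was 1.15 and 1.22 for actin. The part of these markers in the results below was not tested.

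Most of the lipid synthesis genes differed little between the arrays. Of the 47 genes 41 were detected, and 6 were not: Elovl3, Elovl7, Cds1, Lpcat2, Mlxipl and Thrsp. Of the detected members 2 were at least 1.5-fold higher with Phf21a siRNA, against 15.2% of all 11301 detected genes, and 4 were at least 1.5-fold lower, against 13.9% of all genes. Either way, 14.6% of the detected members passed, against 29.1% of all detected genes. At 2-fold the members numbered 2 higher and 2 lower, against 5.72% and 5.47% of all genes. Over the 88 detected probe sets of the members 6 were at least 1.5-fold higher and 10 lower, against 14.2% and 16.1% of all detected probe sets. Since scatter falls with brightness, the count was repeated for the brighter genes, those with a signal of at least 461 (the 75th percentile) on either array. There 0 of 34 members were higher against 12.9% of 7135 genes, 3 were lower against 10.1%, and 8.8% of members passed either way against 23.0%. The median log2 ratio of the detected members was 0.03, equal to the 0.03 of all detected genes, 19 of 41 were under 0 against 47.8%, and 10 of 41 exceeded their local spread against 33.1% of all genes. Acacb alone passed the detection limit on only 1 array.

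**Figure D1:**
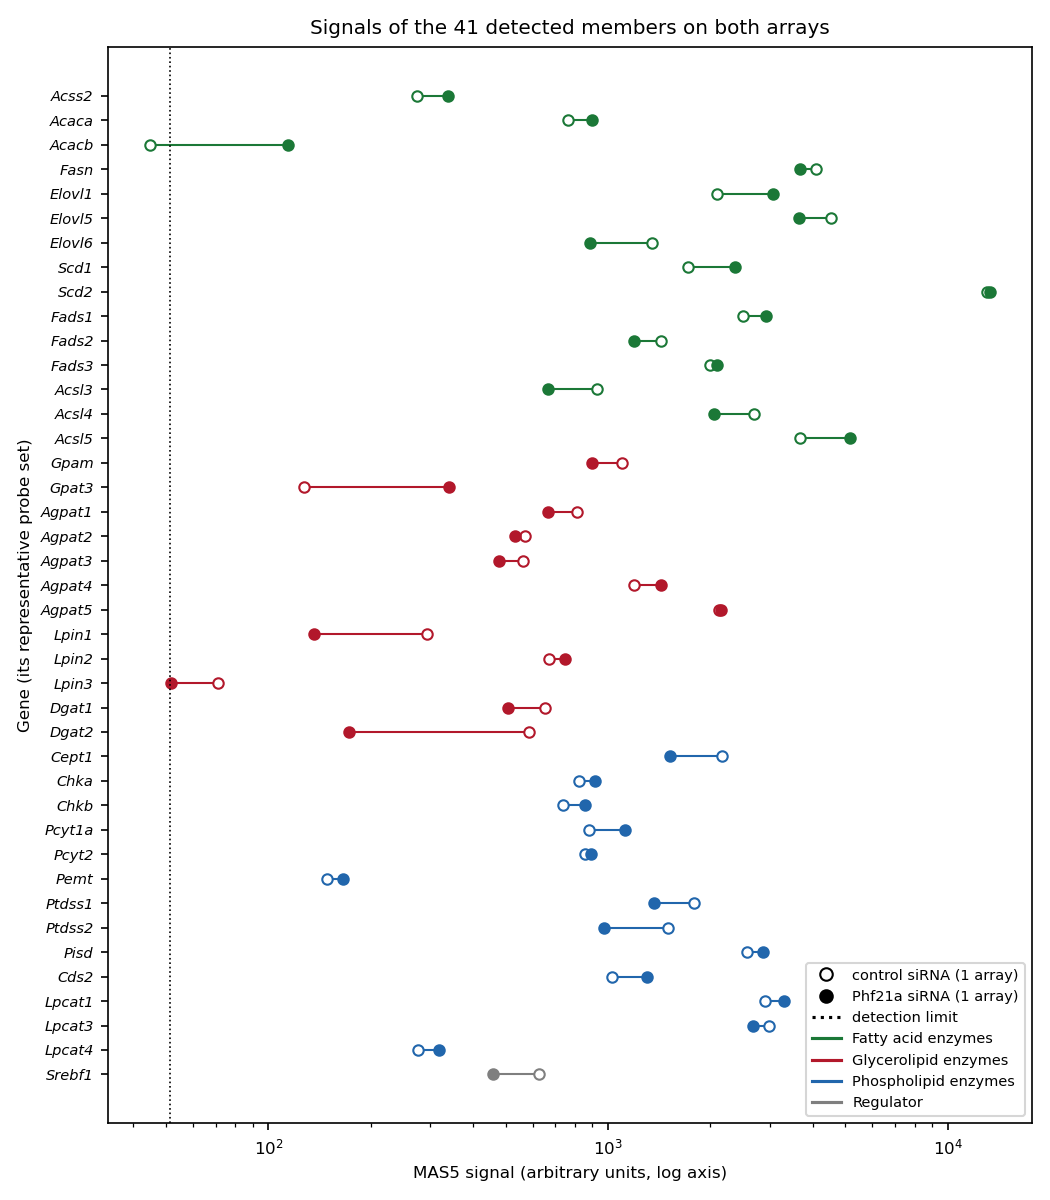
MAS5 signal (log axis) of the representative probe set of each of the 41 detected members on the control siRNA array (open circles) and the Phf21a siRNA array (filled circles), 1 array each, coloured by role. The widest gaps belong to Dgat2 (587 and 173), Gpat3 (127 and 340), Acacb (44.9 and 114) and Lpin1 (294 and 136), and positions along the axis do not compare genes with each other.

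The 6 members past 1.5-fold came from all 3 enzyme roles. Those higher were Acacb, which encodes the acetyl-CoA carboxylase tied to mitochondria, and Gpat3, an acyltransferase of the endoplasmic reticulum. Those lower were Dgat2 and Lpin1 of triglyceride synthesis, the elongase Elovl6 and the phosphatidylserine synthase Ptdss2. The members closest to the threshold were Elovl6 (-0.60) and Ptdss2 (-0.63) just inside it and Elovl1 (0.54) and Cept1 (-0.51) just outside it.

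**Figure D2:**
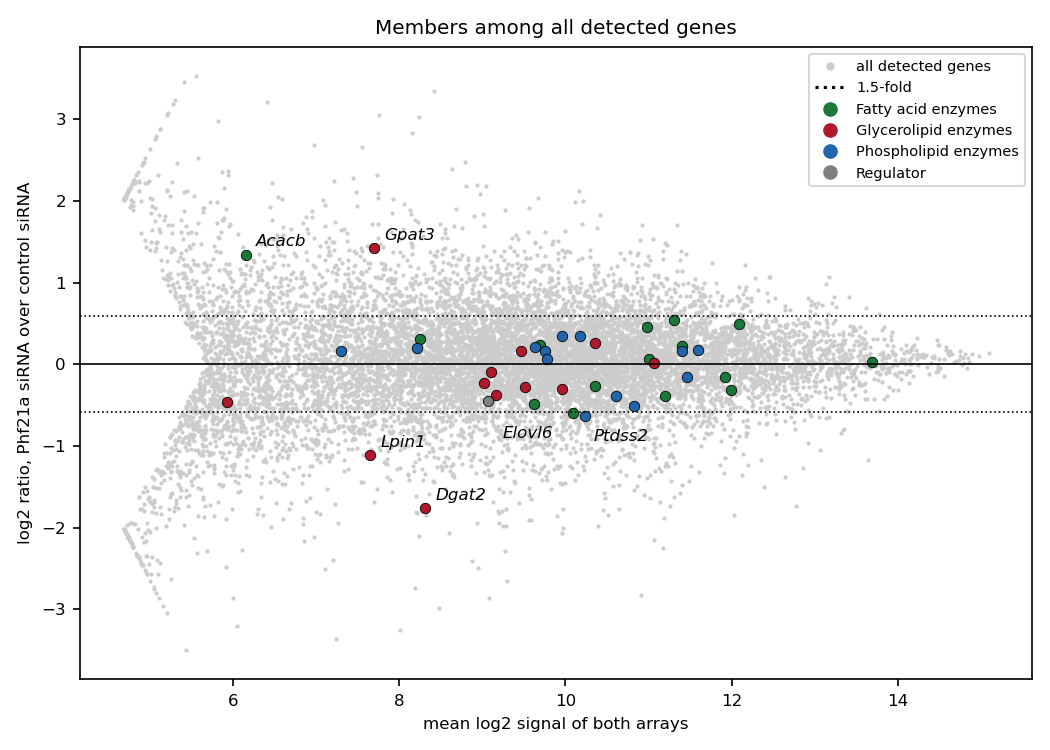
log2 ratio (Phf21a siRNA over control siRNA) against mean log2 signal of both arrays for all 11301 detected genes (grey) and the 41 detected members (coloured by role), with dotted lines at 1.5-fold. The named members are the 6 past 1.5-fold, and Gpat3, Acacb, Lpin1 and Dgat2 lie at mean signals where the scatter of all genes is wide.

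Promoter sequences are shown for the members past 1.5-fold that the RefSeq table (build GRCm38.p6) holds, for Gpam, which shares the step of Gpat3 but not its direction, for Fasn, and for Pcyt1a, which holds a sterol response element. Each is the 250 bases before the annotated start, written 5′ to 3′ on the gene's strand, with capitals marking any motif found on either strand (ATTGG is CCAAT on the other strand). For Gpam and Pcyt1a, which have several promoters in the table, the first is shown.
Gpat3 (chr5:100845979-100846228, plus strand): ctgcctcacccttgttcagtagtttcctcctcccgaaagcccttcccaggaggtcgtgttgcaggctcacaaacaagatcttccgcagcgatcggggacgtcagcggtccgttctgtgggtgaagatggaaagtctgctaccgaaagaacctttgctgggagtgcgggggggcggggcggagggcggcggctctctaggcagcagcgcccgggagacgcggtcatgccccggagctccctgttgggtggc
Gpam (chr19:55127239-55127488, minus strand): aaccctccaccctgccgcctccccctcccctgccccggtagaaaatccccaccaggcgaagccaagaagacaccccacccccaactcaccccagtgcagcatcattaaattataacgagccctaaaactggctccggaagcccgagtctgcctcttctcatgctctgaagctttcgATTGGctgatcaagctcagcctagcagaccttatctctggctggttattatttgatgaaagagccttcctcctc
Acacb (chr5:114165268-114165517, plus strand): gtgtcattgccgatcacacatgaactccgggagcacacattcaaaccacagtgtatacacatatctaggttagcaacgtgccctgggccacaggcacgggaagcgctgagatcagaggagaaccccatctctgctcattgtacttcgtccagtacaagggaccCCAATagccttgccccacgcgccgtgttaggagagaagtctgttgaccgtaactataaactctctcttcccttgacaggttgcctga
Lpin1 (chr12:16610967-16611216, minus strand): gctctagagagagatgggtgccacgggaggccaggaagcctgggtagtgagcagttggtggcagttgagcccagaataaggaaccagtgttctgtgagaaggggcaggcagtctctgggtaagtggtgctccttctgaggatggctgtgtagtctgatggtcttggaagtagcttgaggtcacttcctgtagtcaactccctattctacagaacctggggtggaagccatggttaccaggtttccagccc
Elovl6 (chr3:129532136-129532385, plus strand): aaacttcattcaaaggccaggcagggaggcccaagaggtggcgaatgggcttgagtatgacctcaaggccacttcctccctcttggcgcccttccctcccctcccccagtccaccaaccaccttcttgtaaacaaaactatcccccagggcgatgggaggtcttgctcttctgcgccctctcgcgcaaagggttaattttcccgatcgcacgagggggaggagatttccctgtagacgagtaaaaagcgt
Ptdss2 (chr7:141131036-141131285, plus strand): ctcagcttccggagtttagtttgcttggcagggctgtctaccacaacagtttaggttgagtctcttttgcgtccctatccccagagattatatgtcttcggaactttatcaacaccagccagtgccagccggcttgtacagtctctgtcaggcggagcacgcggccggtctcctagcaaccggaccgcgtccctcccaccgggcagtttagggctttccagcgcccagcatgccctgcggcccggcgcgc
Fasn (chr11:120824548-120824797, minus strand): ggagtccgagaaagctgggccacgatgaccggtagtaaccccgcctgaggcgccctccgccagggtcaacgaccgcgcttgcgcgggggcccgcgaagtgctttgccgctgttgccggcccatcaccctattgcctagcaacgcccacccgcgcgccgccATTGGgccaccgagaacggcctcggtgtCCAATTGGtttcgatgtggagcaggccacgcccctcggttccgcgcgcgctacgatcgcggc
Pcyt1a (chr16:32430671-32430920, plus strand): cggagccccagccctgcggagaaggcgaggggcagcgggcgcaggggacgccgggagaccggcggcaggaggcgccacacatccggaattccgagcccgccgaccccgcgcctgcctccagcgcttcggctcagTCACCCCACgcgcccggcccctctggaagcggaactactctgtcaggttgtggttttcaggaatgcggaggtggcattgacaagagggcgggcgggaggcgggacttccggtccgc

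The motifs searched were a sterol response element (TCACNCCAC), the E-box CACGTG, the CCAAT box, an NF1-like pair of sites (TGGC, any 5 bases, GCCA) and direct repeats of AGGTCA with 1 or 4 bases between them, on both strands. Of the 47 members 38 had a promoter in the table, 54 promoters in all, and Dgat1, Dgat2, Ptdss1, Scd1, Scd2, Fads1, Elovl3, Agpat5 and Pcyt2 had none there. The CCAAT letters stood in 24 of these 54 promoters, which belong to 22 members, and in 33.8% of all 32851 promoters. Among the sequences printed, Acacb holds them on the gene's strand, Gpam on the opposite strand, and Fasn on both strands, where a pair of matches overlaps. The sterol response element letters stood in 3 of the 54 promoters, belonging to Mlxipl and Pcyt1a, against 1.05% of all promoters. The matches of Pcyt1a are the same site in overlapping windows. The E-box stood in 3 of the 54, belonging to Elovl5, Lpin2 and Mlxipl, against 6.02%. The promoters printed for Gpat3, Lpin1, Elovl6 and Ptdss2 hold none of these letter strings in this window, and no member promoter in the table held the paired sites or either direct repeat (0.703%, 0.0335% and 0.0152% of all promoters). These matches are descriptions of letters and not of bound sites.

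Fatty acid synthesis proper showed small differences around Acacb. Acaca, the cytosolic carboxylase whose malonyl-CoA feeds synthesis, had signals of 760 and 900 (log2 ratio 0.24 ± 0.50), and its dimmer probe set went the other way at 239 and 222 (-0.11). Fasn, fatty acid synthase, had signals of 4094 and 3681 (-0.15 ± 0.37). Both differed by less than their local spread. Acacb had signals of 44.9 and 114 (1.34 ± 0.71), a 2.53-fold difference against a control signal under the detection limit, so it was dim on both arrays. With both signals raised to the detection limit its log2 ratio was 1.15.

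Acetyl-CoA for this route comes from citrate through ATP citrate lyase (Acly), which is not among the 47 genes, and from acetate through Acss2. Acly had signals of 5768 and 2602 (log2 ratio -1.15 ± 0.37), and its detected probe sets ranged from -1.34 to -1.15. Acss2 had signals of 273 and 339 (0.31 ± 0.56) on its representative and 147 and 250 (0.77) on its second probe set. All 3 detected probe sets of Acly were thus lower, and both of Acss2 were higher, with a difference of 1.46 between the representative log2 ratios. The ratio of Acss2 turned to -0.39 with scaling to the poly-A controls, RNAs added at labelling, which lowered the median of all genes to -0.69, whereas the difference from Acly does not depend on scaling by a constant. Acss2 was singled out here after its values were seen.

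Elongases differed between family members. Elovl6, which lengthens palmitate to stearate, had signals of 1344 and 887 (log2 ratio -0.60 ± 0.46), and its second detected probe set gave 726 and 512 (-0.50). Elovl1, an elongase of very long saturated chains, was on the other side with signals of 2097 and 3059 (0.54 ± 0.43). Its other 3 detected probe sets lay between 0.23 and 0.39. All 4, the representative included, carry a suffix of probes that can bind several transcripts. Elovl5, which extends polyunsaturated chains, had signals of 4545 and 3649 (-0.32 ± 0.37), and both of its probe sets gave -0.32. Elovl3, an elongase known from brown fat, was under the detection limit with signals of 48.2 and 17.6. The positive ratio of Elovl1 became -0.15 under poly-A scaling.

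Scd1 and Scd2, the desaturases that make monounsaturated fatty acids, differed little. Scd2 had signals of 13087 and 13319 (log2 ratio 0.03 ± 0.29), and its 3 probe sets reached 0.14 at most. Scd1 had probe sets at 0.06 and 0.46, the latter marginally beyond its local spread of 0.45. Fads1 and Fads2, the front-end desaturases of polyunsaturated fatty acids, pointed in opposite directions at 0.22 ± 0.42 (2498 and 2917) and -0.26 ± 0.46, within their local spreads. A dimmer Fads1 probe set gave -0.22. Fads3, a relative of theirs, lay between 0.07 and 0.48 over 3 probe sets. None of the 5 desaturase genes passed 1.5-fold on its representative probe set.

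The acyl-CoA synthetases, which activate free fatty acids, were split. Acsl5 had signals of 3680 and 5173 (log2 ratio 0.49 ± 0.36) on its only probe set and exceeded its local spread, but turned to -0.21 under poly-A scaling. Acsl3 was on the lower side at -0.48 ± 0.51, with a second detected probe set at -0.32. Acsl4, which prefers arachidonate, had probe sets that contradicted each other. Its representative gave 2692 and 2055 (-0.39 ± 0.43) and another gave 1335 and 1069 (-0.32), whereas a further one gave 1387 and 2338 (0.75). No single direction can be assigned to Acsl4. Over the 15 detected fatty acid genes the median log2 ratio was 0.07, with 9 above 0 and 6 under 0, against 47.8% of all genes under 0. Under poly-A scaling 14 were under 0, but the median of all genes moved to -0.69 as well. The median of the fatty acid genes, -0.63, stayed 0.06 above it.

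**Figure D3:**
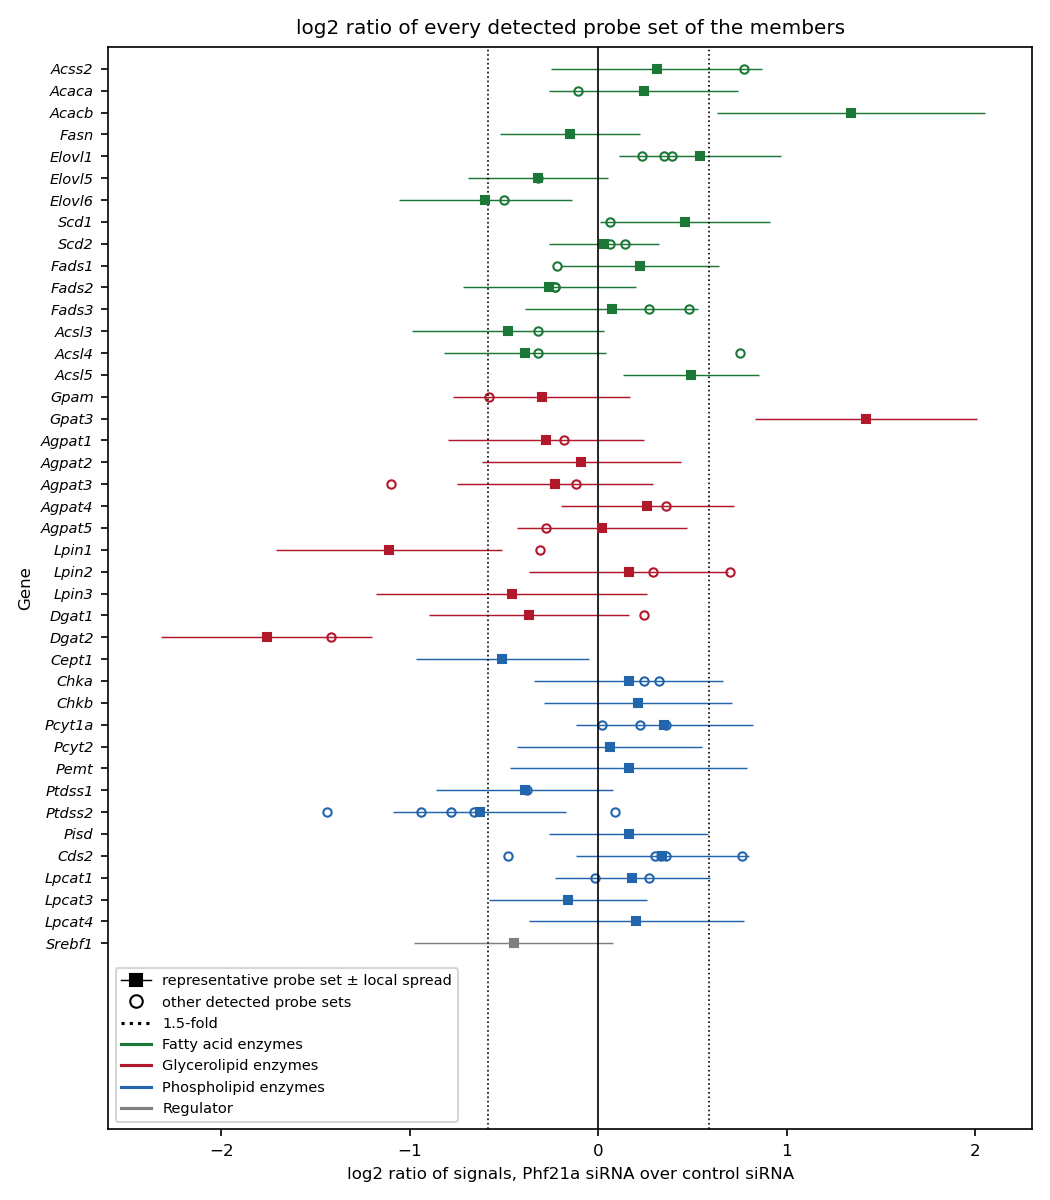
log2 ratio (Phf21a siRNA over control siRNA) of every detected probe set of the 41 detected members, with squares for the representative probe set and its local spread, open circles for the other probe sets, and dotted lines at 1.5-fold. Both probe sets of Dgat2 lie beyond the lower line (-1.76 and -1.42), while probe sets of Acsl4, Cds2 and Ptdss2 lie on both sides of 0.

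Triglyceride synthesis held the lowest and the highest ratio among the members, those of Dgat2 and Gpat3. Differences past 1.5-fold were found in some enzymes of a step and not in all of them. The first acylation of glycerol-3-phosphate is carried out by Gpam at the outer mitochondrial membrane and by Gpat3 and Gpat4 in the endoplasmic reticulum. Gpam had signals of 1099 and 896 (log2 ratio -0.30 ± 0.47), with a second probe set at 206 and 138 (-0.58). Gpat3, on its only probe set, had signals of 127 and 340 (1.42 ± 0.59). Gpat4, which is not among the 47 genes, had signals of 1836 and 771 (-1.25 ± 0.46) and a dimmer probe set at -0.73. The log2 ratio of Gpat3 exceeded that of Gpam by 1.72 and that of Gpat4 by 2.67, so the enzymes of this step pointed in different directions. Gpat3 stayed above 0 at 0.72 under poly-A scaling.

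The second acylation, which forms phosphatidate, showed no difference of 1.5-fold among the representative probe sets of its 5 genes. Agpat1 had signals of 809 and 665 (log2 ratio -0.28 ± 0.52). Agpat4 had 1196 and 1428 (0.26 ± 0.46). Agpat5 had 2126 and 2150 (0.02 ± 0.45), with a second probe set at -0.28. The log2 ratio of Agpat2, the isoform whose loss causes lipodystrophy, was -0.09. That of Agpat3 was -0.23, although 1 of its 3 detected probe sets gave -1.10 with signals of 139 and 64.7. All of these representative ratios were smaller than their local spreads.

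Lipins dephosphorylate phosphatidate to diacylglycerol. Lpin1, the major lipin of adipose tissue, had signals of 294 and 136 (log2 ratio -1.11 ± 0.60). Its second probe set was lower too, but only from 126 to 102 (-0.31). The size for Lpin1 thus rested on 1 probe set, which was not used when probe sets with a suffix were left out. Lpin2 had signals of 669 and 748 (0.16 ± 0.53), and its other detected probe sets gave 0.29 and 0.70. The representative ratio of Lpin2 was above that of Lpin1 by 1.27, and no probe set of Lpin2 was as low as either of Lpin1. Lpin3 was close to the detection limit at 71.3 and 51.8 (-0.46 ± 0.72).

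Diacylglycerol acyltransferases complete triglyceride. Dgat2 had signals of 587 and 173 on its representative probe set (log2 ratio -1.76 ± 0.56) and 283 and 106 on the other (-1.42), which is 3.39-fold and 2.68-fold lower. It was the member with the lowest ratio, and of 27 members with several detected probe sets the 1 in which all were at least 1.5-fold lower, against 5.43% of 5597 such genes on the array. Members with all probe sets at least 1.5-fold higher numbered 0, against 5.02%. Dgat1, an unrelated protein that performs the same reaction, had signals of 652 and 506 (-0.37 ± 0.53), while a dim probe set gave 77.6 and 91.6 (0.24). The log2 ratios of Dgat1 and Dgat2 differed by 1.40. Over the 12 glycerolipid genes, all of them detected, the median log2 ratio was -0.26, with 8 of 12 under 0 against 47.8% of all genes. That median lay 0.29 under the median of all genes, and it was -0.11 without suffixed probe sets and -0.18 with probe sets averaged. Of the 12 genes 25.0% passed 1.5-fold, against 29.1% of all genes. Their median absolute log2 ratio was 0.29, against 0.36 for all genes.

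**Figure D4:**
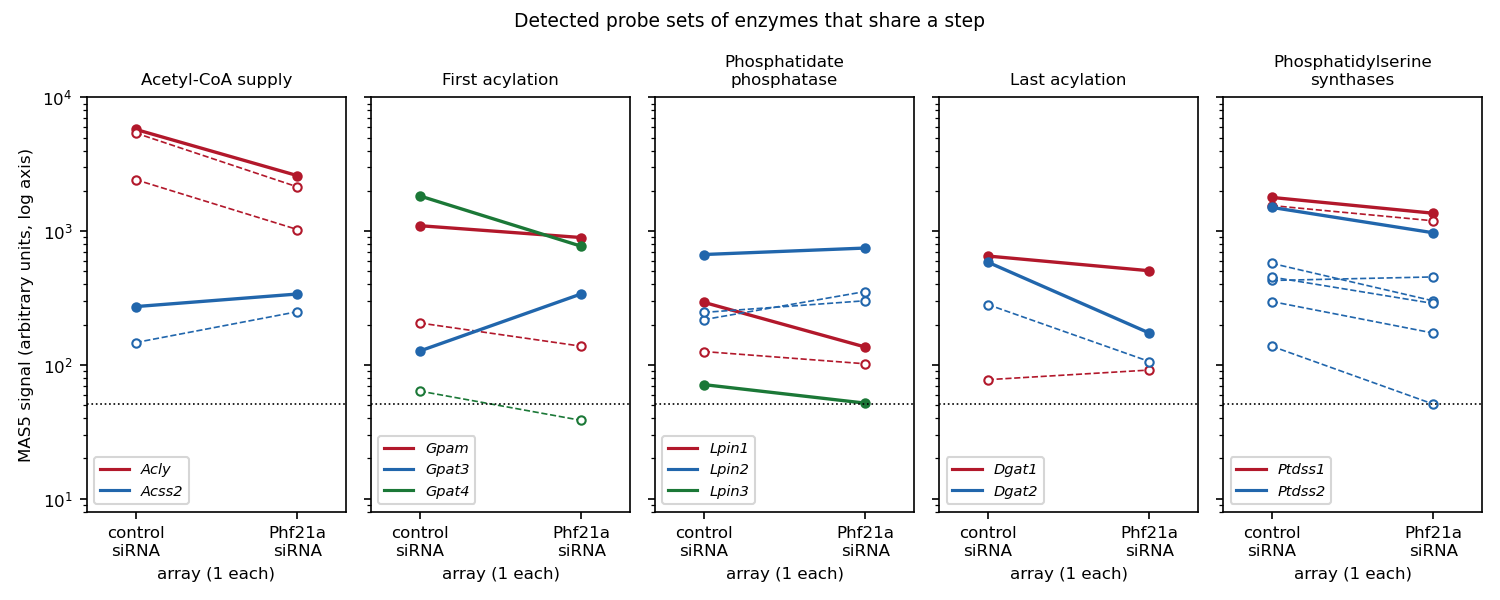
MAS5 signals (log axis) of every detected probe set on the control and Phf21a siRNA arrays for enzymes that share a step, with solid lines for representative and dashed lines for other probe sets, and the detection limit dotted. Gpat3 goes from 127 to 340 where Gpat4 goes from 1836 to 771, and Dgat2 from 587 to 173 where Dgat1 goes from 652 to 506.

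Phospholipid synthesis showed the smallest differences, with a median absolute log2 ratio of 0.20 against 0.36 for all detected genes. Of its 13 detected genes 1 was past 1.5-fold, against 29.1% of all genes. These genes were mostly bright, with 11 of the 13 reaching the 75th percentile of signal. Over all genes that reached it, the median absolute log2 ratio was 0.31 and 23.0% passed 1.5-fold. In the Kennedy pathway, choline kinases (Chka, Chkb) and cytidylyl transferases (Pcyt1a for choline, Pcyt2 for ethanolamine) activate the head group, and Cept1 joins it to diacylglycerol. Cept1 had signals of 2163 and 1517 (log2 ratio -0.51 ± 0.46). The activating enzymes Chka, Chkb, Pcyt1a and Pcyt2 lay between 0.06 and 0.35, each within its local spread. All 4 probe sets of Pcyt1a, the rate-limiting enzyme of phosphatidylcholine synthesis, were at or above 0.02, the highest at 0.36. Pemt, which methylates phosphatidylethanolamine, was at 0.16. Cept1 was therefore the one gene of the 6 on this route with a ratio under 0, but with hybridisation control scaling 5 of the 6 were under 0 and with poly-A scaling 6. The median of all genes moved to -0.22 and -0.69 with these scalings.

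Of the 3 genes of the serine route, Ptdss2 passed 1.5-fold on the lower side, and Ptdss1, the other synthase, differed by less than its local spread. Ptdss1 had signals of 1788 and 1361 (log2 ratio -0.39 ± 0.47), and its second detected probe set gave -0.38. Ptdss2 had signals of 1506 and 972 (-0.63 ± 0.46). Of the 6 detected probe sets of Ptdss2, 5 lay between -1.44 and -0.63, and the remaining one gave 428 and 455 (0.09). All 6 carry a suffix of probes that can bind several transcripts. Pisd, the mitochondrial decarboxylase that turns phosphatidylserine into phosphatidylethanolamine, had signals of 2568 and 2861 (0.16 ± 0.42) on 1 probe set, also with such a suffix.

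CDP-diacylglycerol, the precursor of phosphatidylinositol and cardiolipin, is made by Cds1 and Cds2. Cds1 was not detected, with signals of 5.21 and 5.07. Cds2 had signals of 1027 and 1304 (log2 ratio 0.34 ± 0.46), and of its 6 detected probe sets 5 lay between 0.30 and 0.76 while the other gave 362 and 259 (-0.48). Among the enzymes that reacylate lysophospholipids, Lpcat1 had signals of 2898 and 3294 (0.18 ± 0.41) with probe sets from -0.02 to 0.27, and Lpcat3 had 2968 and 2666 (-0.16 ± 0.42). Lpcat4 was at 0.20, and Lpcat2 was not detected at 33.5 and 10.7. The phospholipid genes had a median log2 ratio of 0.16, with 9 of 13 above 0, which became 2 of 13 with hybridisation control scaling and 0 of 13 with poly-A scaling. Relative to the median of all genes their median was 0.13 higher, and it was 0.14 and 0.15 higher with those scalings.

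Of the regulators, Srebf1, whose product activates most of the fatty acid enzymes, had signals of 625 and 459 (log2 ratio -0.45 ± 0.53) on its only probe set. Mlxipl, which encodes the glucose-responsive factor ChREBP, was not detected, with signals of 4.72 and 3.59. Thrsp, a small protein linked to lipogenesis in mature fat, was not detected on any of its probe sets, the highest at 10.2 and 7.56. The probe set of Srebf1 does not separate its transcript isoforms here.

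Other genes of the same pathway that are not among the 47 were examined as a fixed list of 54, of which 5 had no probe set assigned to them alone and 40 were detected. Among them 3 passed 1.5-fold on the higher side and 5 on the lower (7.5% and 12.5%), against 15.2% and 13.9% of all genes. Their median log2 ratio was -0.06. The lowest were Gpat4 and Acly, already described, Mcat, the malonyl transferase of mitochondrial fatty acid synthesis (511 and 253, -1.02 ± 0.52), and Lclat1, a cardiolipin acyltransferase (1588 and 939, -0.76 ± 0.46). The highest were Plpp2, a lipid phosphate phosphatase (1514 and 3223, 1.09 ± 0.44), Hacd4 (363 and 673, 0.89 ± 0.51) and Hacd2 (2853 and 4036, 0.50 ± 0.39), dehydratases of the elongation cycle, and Mid1ip1, a relative of Thrsp that promotes polymerisation of acetyl-CoA carboxylase (1748 and 2977, 0.77 ± 0.44). A dimmer probe set of Hacd2 gave -0.85, so its direction was not shared. Ratios of the 4 highest stayed above 0 with poly-A scaling, except that Hacd2 was at -0.20.

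The sign of many small ratios depended on the scaling. Of the 22 members with ratios above 0, 12 turned under 0 with hybridisation control scaling and 20 with poly-A scaling, which left Acacb and Gpat3 above 0. Both control scalings divide the Phf21a siRNA signals by a constant and lower every member's ratio. The 19 members under 0 could thus not turn above 0 with them, and the directions cannot be compared for stability. With median centring, quantile normalization and loess none of the 19 turned above 0, and with loess 2 of the 22 (Scd2 and Agpat5) turned under 0. These scalings moved the ratios nearest 0 only slightly, as with Agpat2 from -0.09 to -0.11 with loess. They therefore do not compare the directions either. Probe sets of opposite sign were found in 8 of 27 members with several detected probe sets (Acaca, Fads1, Acsl4, Agpat5, Dgat1, Ptdss2, Cds2 and Lpcat1), against 38.6% of 5597 genes.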

How the data were processed

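Total RNA (1 ug) from 2 samples was labelled with biotin and hybridised to 1 Affymetrix array each, per the labels' protocols. The deposited values are linear signal intensity per probe set, made by the authors with MAS5 per the submitters' processing notes, and the MAS5 version was not given in the sources used here. The algorithm subtracts mismatch signal, which leaves low signals noisy, and its scaling of each array to a trimmed mean of 500 cannot show a change in total messenger RNA. The number of arrays limits the precision.

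Of 45101 probe sets, 64 controls were set aside, and 34945 had 1 gene, 932 several and 9160 none in the array annotation. Entrez numbers linked 34741 of the 34945 to the RefSeq genes, with 0 symbols updated. Signals were raised to a floor of 12.9 (the pooled 25th percentile) before log2, and no ratio is printed for a signal under it. Probe sets ending in _x_at represented a gene only where no other was detected. Names were set by a rule: every member past 1.5-fold, the 6 brightest detected of each role, the regulators, members with probe sets of opposite sign, and the 4 highest and 4 lowest other pathway genes; the rest were given by ratio or range, except that signals of Acss2, Agpat3, Lpin3 and undetected members were added after their values were seen. The members and lists were chosen with earlier results of these data known. The procedure was run on simulated data with noise set under the local spreads found here. That run checks the code and says nothing on how reliable these ratios are. Alternatives were 5 scalings, 2 treatments of low signals, 2 choices of probe set, 3 filters and a 2-fold threshold. The analysis used Python 3.11.15, numpy 2.4.6, pandas 2.3.3, statsmodels 0.14.6 and matplotlib 3.10.9.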

Additional observations from a re-analysis of the deposited data

How the results depend on the processing

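Median centring, quantile normalization, loess, a floor at the detection limit and a pseudocount of 1 left the members at 2 higher and 4 lower. Requiring detection on both arrays, which leaves out Acacb, gave 1 higher of 40 members, against 13.6% of all genes. The filter at the 75th percentile, applied to each probe set, gave 0 of 34, against 13.0% of 7179 genes. Acacb and Gpat3 are dimmer than that. Leaving out suffixed probe sets gave 2 lower, since Lpin1 was then at -0.31 and Ptdss2 had no detected probe set left, and it moved Dgat1 to 0.24. Averaging probe sets put Elovl6 at -0.55 and Hacd2 at -0.17. A 2-fold threshold gave 2 lower members and, in the other pathway genes, 1 higher and 3 lower, against 5.72% higher and 5.47% lower of all genes. No filter gave 6 lower of 47 members and 10 lower other pathway genes, against 15.7% of all genes. Hybridisation control scaling gave 11 lower members of 41 detected and 10 lower other pathway genes of 40, against 24.3% of all genes. Poly-A control scaling gave 23 and 24, against 58.2% of all genes, with 0 other pathway genes higher against 2.2%. Relative to the median of all genes, both control scalings left the members at 2 higher and 4 lower. Poly-A scaling moved Phf21a to -2.02. It moved the medians to -0.67 for all detected members, -0.63 for fatty acid, -0.96 for glycerolipid and -0.54 for phospholipid enzymes. The median of all genes moved with them, to -0.69, since the poly-A controls differed by 0.70 between arrays (hybridisation controls by 0.24). Applying the alternatives to the other pathway genes was decided after the data were seen. Of 573 alternative values for named genes 523 moved by less than the local spread, 47 of the other 50 under poly-A scaling, and 0 of those past 1.5-fold changed sign. Many of these values could not move, so the count does not measure stability. The filters only keep or drop a named gene, and averaging leaves a gene with 1 detected probe set unchanged. Low signal treatments hardly touch bright genes, and the control scalings cannot raise a ratio. No paired analysis was possible because each group had 1 array. Signals near the detection limit, as for Acacb and Lpin3, carry the widest local spreads.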
